A study of Mus musculus with 6 samples.

Results

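Interferon-stimulated effector genes encode the proteins with which a cell resists infection after interferon has reached it. The set described here has 48 genes chosen by name, from the IFIT, Oas, Mx, guanylate-binding protein, immunity-related GTPase and Schlafen families and from single effectors such as Bst2, Isg15 and Usp18. A gene was read from a probe set whose platform annotation gives it as the sole symbol, and where a gene had several, the brightest by its mean of the 6 arrays was kept. In this way 41 of the 48 genes were measured, among 19938 genes in all. Ifi44 was not analysed here, and Isg15, Gbp2, Gbp6, Igtp, Irgm2 and Ifi47 were read only from probe sets shared with other genes, which are described apart.

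The arrays compare naive CD4 T cells that lack or carry Ly-6C, a lipid-anchored surface protein, and the comparison asks which transcripts differ between them. All cells came from peripheral lymph nodes of 6 week old C57BL/6 Foxp3-GFP mice, so every group carries the reporter of Foxp3, the factor that defines regulatory T cells. Cells were enriched on magnetic beads and sorted as CD4+ TCRβ+ cells with low CD44 and without CD8, CD25 or Foxp3, either Ly-6C+ or Ly-6C-. The labels name no treatment and no infection. Each group has 3 arrays labelled as biological replicates; whether mice were pooled is not stated, so p-values measure the spread between these samples. Values are log2 expression, differences are signed so that a positive value means more in Ly-6C-negative cells, and a difference of 1 is 2-fold.

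In cells at rest, interferon receptors with the kinases Jak1 and Tyk2 wait for ligand. Type I interferon acts on promoters through the interferon-stimulated response element, and interferon gamma through gamma-activated sites. Naive T cells hold a low constant expression of many of these genes in the absence of infection, and Ly-6C itself is known to be inducible by interferon in T cells.

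The sort was visible in the transcripts of Ly-6C. The probe set with the larger difference, 1 of a pair shared by Ly6c2 and Ly6c1, averaged 8.49 ± 0.24 (SD, n = 3) in the cells sorted as negative and 11.66 ± 0.067 (SD, n = 3) in the others (limma adjusted p = 3.94e-05 over all probe sets). T cell transcripts were bright on all arrays, with Cd3e between 11.55 and 11.92 and Cd4 between 10.30 and 10.72, where the median gene of an array lay between 6.35 and 6.39. Marker lists of plasmacytoid dendritic cells, which are strong producers of type I interferon, of other dendritic cells, of monocytes and neutrophils, of B cells, of CD8 T cells, of stroma and of erythrocytes and platelets had 0 genes past a limma adjusted p of 0.05. At an unadjusted limma p under 0.05 these lists had 1, 1, 3, 0, 2, 0 and 0 genes in that order. They had 11, 11, 18, 10, 4, 11 and 4 measured genes, and the share over all genes was 6.71%. In the CD8 list the 2 of 4 were Crtam at -0.29 and Ctsw at 0.32, while Cd8a differed by -0.029 and Cd8b1 by -0.12. The plasmacytoid marker Siglech lay between 5.61 and 5.89 on the 6 arrays. Of all genes 0.145% passed a limma adjusted p of 0.05. In the NK and innate lymphoid list 2 of 13 genes passed, Klrd1 at -1.50 (limma adjusted p = 0.0263) and Gzma at -0.69 (limma adjusted p = 0.0392). Under the replicate block 3 of 13 did, since Prf1 at -0.70 had a limma adjusted p of 0.00848 there and 0.145 without the block. With that block 41 of all genes passed. Of the 13, 8 lay below 0 and 5 above, among these Eomes at 0.27 without overlap (limma adjusted p = 0.473). Ncr1, Klrb1c and Klra8 averaged 4.38, 3.84 and 3.89 over the arrays and differed by -0.054, 0.0083 and -0.012. In the regulatory T cell list 2 of 6 passed, Ctla4 at 1.34 (limma adjusted p = 0.0121) and Ikzf2 at 0.63 (limma adjusted p = 0.0263). Of the 6, 5 lay above 0 and 1 below, with a median difference of 0.15. The part of these cell types in the results was not tested. Ly-6C-negative replicate 2 stood apart, with a limma array weight of 0.456 where the other arrays had 0.751 to 1.51, and the counts of members are given without it as well.

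Across the interferon-stimulated effector genes, each read from its brightest probe set, Ly-6C-negative and Ly-6C-positive cells differed by 1.26-fold at most. None of the 41 measured genes passed the limma adjusted p of 0.05, where 29 of all genes, 0.145%, did. At an unadjusted limma p under 0.05 there were 5 members, or 12.2%, beside 6.71% of all genes. Of these, 3 were above 0, as in 3.44% of all genes, and 2 below, as in 3.27%. The members lay on both sides of 0, with 21 above and 20 of 41 below. Of all genes 52.2% were below, and of genes at or above the median level 45.6%. The members' median difference was 0.00053, against -0.0048 over all genes and 0.0099 over those brighter genes. With a second quantile normalization 22 lay below 0 and with array medians subtracted 17, so the side of 0 says little for the smallest differences. The differences ran from -0.33 for Iigp1 to 0.34 for Mx2, and 26 members differed by less than 0.1 in either direction. The median absolute difference was 0.080 for the members and 0.062 over all genes, so the members did not differ less than the typical gene.

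The arrays were precise enough to bound these differences. The standard error of a member's difference lay between 0.065 and 0.18, with a median of 0.079. The limma 95% interval of each of the 41 members, taken gene by gene, stayed inside a 2-fold change in both directions, and that of 40 members stayed inside a 1.5-fold change. Mx2 was the exception, with an interval from 0.033 to 0.64. Inside a 1.3-fold change lay the intervals of 33 members, while 8 reached beyond it. Of all genes, 99.9% had intervals inside 2-fold, 98.8% inside 1.5-fold and 89.5% inside 1.3-fold. Such bounds are thus not particular to the members. In a bulk sample, fewer cells that express a gene and less RNA in each of them cannot be told apart, and a small shift in a few cells would not be seen.

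**Figure D1:**
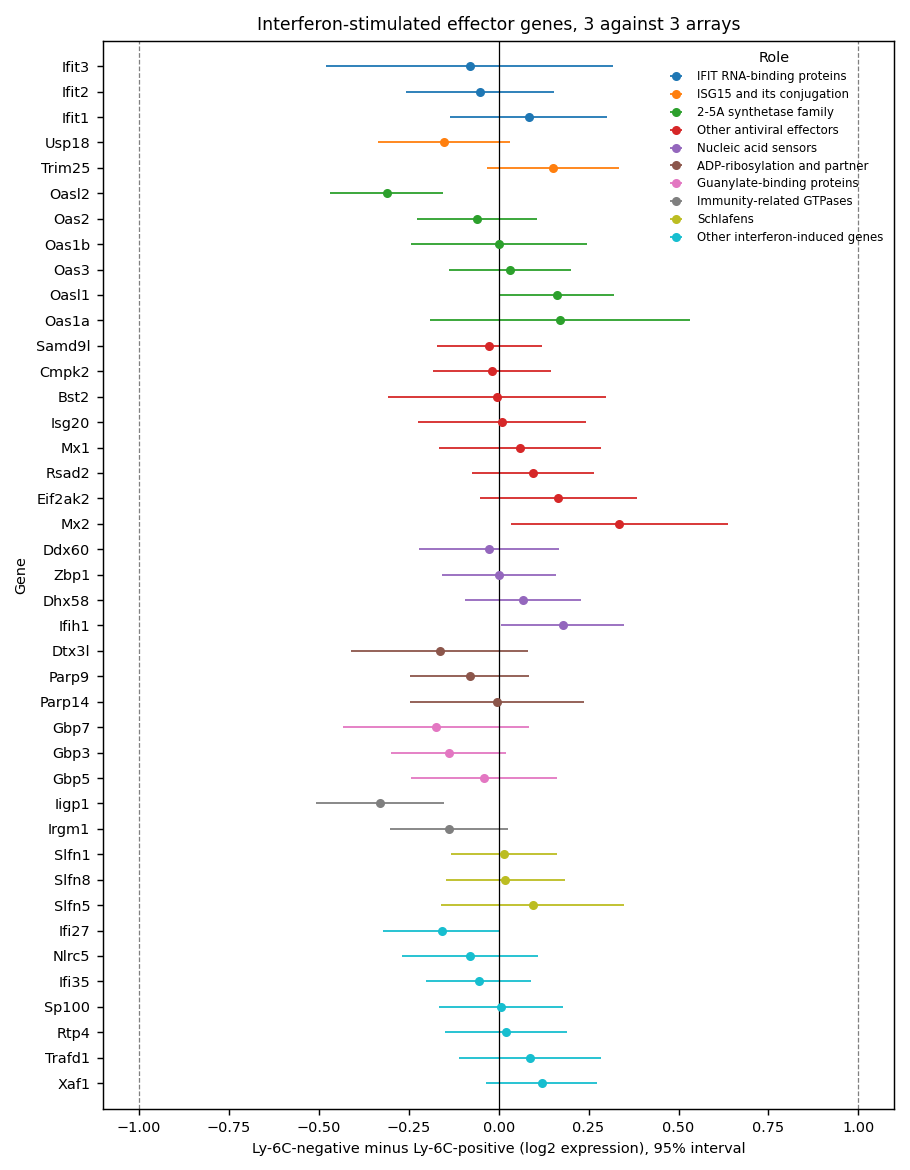
Difference in log2 expression (negative minus positive group, 3 against 3 arrays) of the 41 measured genes, coloured by role, with the gene's 95% limma interval as the bar. Dashed lines mark 2-fold; all bars stay between them, and the points run from -0.33 for Iigp1 to 0.34 for Mx2.

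In 8 members, or 19.5%, all arrays of one group lay above all arrays of the other, as in 12.6% of all genes. Of these, Oasl2, Iigp1, Ifi27, Gbp3 and Irgm1 were lower in Ly-6C-negative cells, 5 of 41 against 6.5% of all genes, and Mx2, Ifih1 and Oasl1 were higher, 3 of 41 against 6.12%. These shares depend on level: of 9969 genes at or above the median level, which include 40 members, 496 were lower without overlap and 828 higher. The gap between the groups was 0.23 for Oasl2 and 0.20 for Iigp1. For the other 6 genes it was 0.062 or less, and for Ifi27 it was 0.0028, so that a small change in 1 array would make the groups overlap. Without Ly-6C-negative replicate 2 the groups did not overlap in 17 members, or 41.5%, and in 27.0% of all genes; with fewer arrays in a group, overlap is rarer for any gene.

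**Figure D2:**
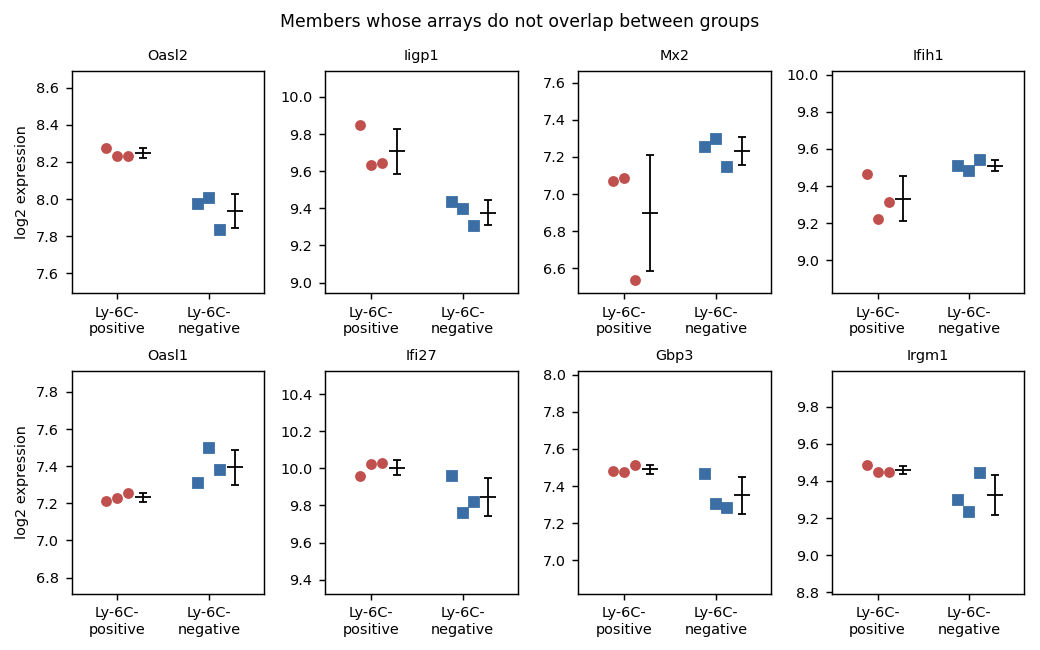
Log2 expression on each array for the 8 genes whose groups do not overlap, with the mean and SD of 3 arrays beside the points; each panel spans the same height. Oasl2 and Iigp1 show the widest gaps, and the lowest point for Mx2 is Ly-6C-positive replicate 3 at 6.54.

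Promoter sequences show what the members share apart from their levels. RefSeq promoter windows on GRCm38.p6, from 250 bases before to 50 after a gene's start, were found for 34 of the 48 members and 14 were not matched. The response element of type I interferon was searched as GAAA, any 2 bases and GAAA again on either strand, and the gamma-activated site as TTC, any 3 bases and GAA, which reads the same on both strands; matches of the elements may overlap. The response element was found in 19 of the 34 members, or 55.9%, and in 3.99% of 27025 genes and 3.44% of all windows. The gamma-activated site was found in 10 members, or 29.4%, and in 9.55% of genes and 8.30% of windows. Both were present in 7 members, Bst2, Eif2ak2, Gbp5, Gbp7, Igtp, Irgm2 and Oas1a, or 20.6%, against 0.540% of genes and 0.454% of windows.

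The windows of Ifih1, Gbp3, Irgm1 and Eif2ak2 are shown because these are the genes with a match among the 12 members of smallest p, 2 of them above 0 and 2 below. Iigp1, Mx2, Ifi27 and Usp18 are also among those 12, but no window was found for them and they were not searched. The windows of Ifih1, Gbp3, Irgm1 and Eif2ak2 lie, in that order, at chr2:62646206-62646505 (minus strand), chr3:142559794-142560093 (plus strand), chr11:48871371-48871670 (minus strand) and chr17:78882523-78882822 (minus strand). They are written 5′ to 3′ along the gene, and carry in capitals each match to either element.
Ifih1: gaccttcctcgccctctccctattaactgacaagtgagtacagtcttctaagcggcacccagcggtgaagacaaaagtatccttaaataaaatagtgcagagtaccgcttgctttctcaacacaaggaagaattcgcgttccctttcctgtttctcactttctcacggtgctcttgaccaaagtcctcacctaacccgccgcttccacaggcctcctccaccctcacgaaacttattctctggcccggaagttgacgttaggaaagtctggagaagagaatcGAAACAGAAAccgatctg
Gbp3: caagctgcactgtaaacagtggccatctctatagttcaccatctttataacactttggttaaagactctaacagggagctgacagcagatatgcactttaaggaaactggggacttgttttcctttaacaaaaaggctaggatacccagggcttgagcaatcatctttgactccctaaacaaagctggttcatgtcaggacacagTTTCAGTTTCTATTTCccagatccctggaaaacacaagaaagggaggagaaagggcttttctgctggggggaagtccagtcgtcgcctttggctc
Irgm1: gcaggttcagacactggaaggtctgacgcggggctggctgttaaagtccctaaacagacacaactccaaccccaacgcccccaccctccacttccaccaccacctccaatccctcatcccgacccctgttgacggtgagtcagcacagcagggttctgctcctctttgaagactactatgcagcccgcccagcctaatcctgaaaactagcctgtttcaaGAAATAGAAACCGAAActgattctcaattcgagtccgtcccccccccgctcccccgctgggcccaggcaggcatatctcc
Eif2ak2: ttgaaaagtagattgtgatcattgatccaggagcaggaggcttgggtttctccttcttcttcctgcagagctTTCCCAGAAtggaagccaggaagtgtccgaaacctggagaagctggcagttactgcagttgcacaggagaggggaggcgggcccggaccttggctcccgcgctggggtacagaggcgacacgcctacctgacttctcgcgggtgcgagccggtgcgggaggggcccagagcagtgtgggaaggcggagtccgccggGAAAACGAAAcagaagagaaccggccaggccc
Gbp3 and Irgm1 each hold 2 overlapping matches to the response element upstream of the start, written as TTTC on the gene's strand in Gbp3 and as GAAA in Irgm1. The capitals of Ifih1 are a single response element that lies after the annotated start, and Eif2ak2 has a gamma-activated site upstream and a response element just after the start. Genes with the same element thus appear among those above 0 and those below.

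The paralogs Igtp and Irgm2, which one probe set reads together, also share the promoter around both elements. The stretches at chr11:58199486-58199556 (plus strand) and chr11:58214877-58214947 (plus strand) are 71 bases long and identical at 69 positions, with the gamma-activated site first, 2 bases between, and then the response element, both in capitals.
Igtp: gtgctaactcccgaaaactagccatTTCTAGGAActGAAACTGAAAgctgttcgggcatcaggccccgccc
Irgm2: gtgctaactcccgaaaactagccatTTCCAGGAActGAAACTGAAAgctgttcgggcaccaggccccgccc
A match is a sequence description and no evidence that a factor bound there in these cells.

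Members with and without the response element differed little between the cell groups. The 15 measured members with a match had a median difference of 0.019, with 7 below 0, and the 13 measured members searched without a match had a median of 0.0070, with 6 below 0. For the gamma-activated site, 8 measured members with a match had a median of -0.022, with 5 below 0, and 20 without one had a median of 0.017, with 8 below 0.

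Oasl2 and Oasl1 belong to the oligoadenylate synthetase family, and both carry ubiquitin-like domains. Those members of the family that are active enzymes make a second messenger for the nuclease RNase L when they meet viral RNA. Oasl2 measured 8.28, 8.23 and 8.23 in Ly-6C-positive replicates 1, 2 and 3, and 7.97, 8.0 and 7.83 in Ly-6C-negative replicates 1, 2 and 3. All Ly-6C-negative arrays were below all Ly-6C-positive ones, and the difference was -0.31 (standard error 0.070), 1.24-fold lower (limma adjusted p = 0.285). It had the smallest p of the members and was number 97 of all genes by p. Oasl1 went the other way, with 7.21, 7.23 and 7.26 in Ly-6C-positive and 7.31, 7.50 and 7.38 in Ly-6C-negative cells. Its difference was 0.16 (standard error 0.071; limma adjusted p = 0.740).

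The other members of the family differed by -0.059 for Oas2, 0.00075 for Oas1b, 0.031 for Oas3 and 0.17 for Oas1a. Oas2 measured 8.69, 8.58 and 8.57 in Ly-6C-positive and 8.50, 8.49 and 8.66 in Ly-6C-negative cells, with groups that overlap. Oas1a was spread widely in the Ly-6C-positive group, at 6.87, 7.43 and 7.50, and its standard error of 0.16 was among the highest of the members. A further probe set shared by Oas1a and Oas1g differed by 0.086. Across the 6 genes 4 were above 0 and 2 below.

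The IFIT proteins bind viral RNA and block its translation. Ifit3 measured 10.53, 10.66 and 10.27 in Ly-6C-positive and 10.44, 10.79 and 9.99 in Ly-6C-negative cells, so that the highest and the lowest array were both Ly-6C-negative. Its difference was -0.080, and its standard error of 0.18 was the largest among the members (limma adjusted p = 0.967). It became -0.27 without Ly-6C-negative replicate 2 and 0.13 without Ly-6C-negative replicate 3. Ifit1 differed by 0.084 and Ifit2 by -0.052, and the groups overlapped in both.

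Isg15 is a ubiquitin-like protein that is attached to other proteins, Usp18 removes it and also dampens the type I receptor, and Trim25 is a ubiquitin ligase that activates the RNA sensor RIG-I. The probe set shared by Isg15 and Gm9706 measured 8.28, 8.25 and 8.07 in Ly-6C-positive and 8.27, 8.20 and 8.28 in Ly-6C-negative cells, a difference of 0.053. Usp18 measured 8.82, 9.09 and 8.98 against 8.88, 8.79 and 8.77, a difference of -0.15. Trim25 measured 9.22, 9.20 and 9.18 against 9.48, 9.19 and 9.39, a difference of 0.15. The groups overlapped in all 3, and Usp18 and Trim25 each had a limma adjusted p of 0.813.

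Among the other antiviral effectors, Mx1 and Mx2 are genes of the Mx family of dynamin-like GTPases. The arrays read their transcripts and do not show whether a working protein is made in these mice. Mx2 measured 7.07, 7.09 and 6.54 in Ly-6C-positive and 7.25, 7.30 and 7.15 in Ly-6C-negative cells. Ly-6C-positive replicate 3 lay far below the other arrays, and the difference was 0.34, standard error 0.13 (limma adjusted p = 0.693). Without that array it was 0.15. Mx1 differed by 0.058, with overlapping groups. Eif2ak2, the kinase PKR that stops translation when it binds viral RNA, also had its lowest value in Ly-6C-positive replicate 3: it measured 8.15, 7.96 and 7.74 against 8.10, 8.08 and 8.16, a difference of 0.17 (limma adjusted p = 0.837), or 0.063 without that array. Samd9l, a restriction factor of poxviruses, measured 11.05, 11.0 and 10.94 against 10.99, 10.98 and 10.93 and differed by -0.026. Rsad2, or viperin, differed by 0.095, the nucleotide kinase gene Cmpk2 by -0.018, the nuclease gene Isg20 by 0.010 and Bst2, which tethers budding virus to the cell, by -0.0036. Of these 8 genes 5 were above 0 and 3 below.

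The sensors of foreign nucleic acid showed a small difference for Ifih1, which encodes the RNA sensor MDA5. Ifih1 measured 9.46, 9.22 and 9.31 in Ly-6C-positive and 9.51, 9.48 and 9.54 in Ly-6C-negative cells, with a gap between the groups of 0.019. The difference was 0.18 (standard error 0.076; limma adjusted p = 0.732). Zbp1, a sensor that can start necroptosis, measured 10.42, 10.42 and 10.31 against 10.39, 10.31 and 10.46, a difference of 0.00053. Dhx58, or LGP2, differed by 0.067 and Ddx60 by -0.027.

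Parp9 and Parp14 are ADP-ribosyltransferase family members, and Dtx3l is the ubiquitin ligase that pairs with Parp9. They differed by -0.080, -0.0041 and -0.16, with overlapping groups. Parp14 measured 9.47, 9.45 and 9.51 in Ly-6C-positive and 9.59, 9.20 and 9.63 in Ly-6C-negative cells, so that Ly-6C-negative replicate 2 stood below the other 5 arrays; without it the difference was 0.13.

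The Schlafens, a family linked to RNA cleavage and to T cell quiescence, lay close to 0. Slfn1 measured 11.70, 11.75 and 11.62 in Ly-6C-positive and 11.69, 11.70 and 11.73 in Ly-6C-negative cells, a difference of 0.016. Slfn8 differed by 0.019 and Slfn5 by 0.094. The groups overlapped in all 3 genes.

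Among the remaining interferon-induced genes, Ifi27, a small hydrophobic protein, measured 9.96, 10.02 and 10.03 against 9.96, 9.76 and 9.82, a difference of -0.16 (limma adjusted p = 0.749). Xaf1, which promotes apoptosis, measured 8.45, 8.45 and 8.51 against 8.64, 8.50 and 8.64, a difference of 0.12 with groups that overlap (limma adjusted p = 0.832). Sp100, a component of nuclear bodies, measured 11.74, 11.71 and 11.62 against 11.68, 11.59 and 11.81, a difference of 0.0070. Ifi35, Rtp4 and Trafd1 differed by -0.056, 0.020 and 0.088. Nlrc5, the activator of MHC class I genes, is covered by 19 probe sets of its own symbol, with differences from -0.16 to 0.38. The brightest, used here, differed by -0.079. The 0.38 of another Nlrc5 probe set exceeds the largest difference among the probe sets used, 0.34 for Mx2.

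In the GTPase families the 5 members read from probe sets of their own lay below 0, with values as small as -0.040. Guanylate-binding proteins and immunity-related GTPases attack the vacuoles and membranes in which intracellular bacteria and parasites live, and are classic targets of interferon gamma. Gbp3, Gbp5 and Gbp7 differed by -0.14, -0.040 and -0.17, and Irgm1 and Iigp1 by -0.14 and -0.33. None of these 5 passed the limma adjusted p of 0.05, and Iigp1 alone had an unadjusted limma p under 0.05. Counted with the probe sets that name a family member beside other genes, 9 of 9 lay below 0, as 53.4% of all probe sets did. Of the 9, 3 had an unadjusted limma p under 0.05, beside 6.59% of all probe sets, and 0 passed after adjustment; under the replicate block, or after subtracting array medians, the 3 became 2. The direction was not shared by the whole family: of the relatives outside the set, Gbp9 differed by 0.026, while Gbp4, Gbp8 and Gbp11 differed by -0.099, -0.076 and -0.18. A pair of probe sets shared by Tgtp1 and Tgtp2 differed by -0.20 and -0.27. These genes resemble each other in sequence and are induced together, so they are not 9 independent observations, and this grouping was singled out after its values were seen.

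Iigp1 measured 9.85, 9.63 and 9.64 in Ly-6C-positive and 9.43, 9.39 and 9.30 in Ly-6C-negative cells. All Ly-6C-negative arrays were below all Ly-6C-positive ones, by 1.26-fold on average with a standard error of 0.079 on the log2 scale (limma adjusted p = 0.357). Irgm1 measured 9.49, 9.45 and 9.45 against 9.30, 9.23 and 9.44, and its groups were 0.0041 apart (limma adjusted p = 0.813). The probe set shared by Irgm2 and Igtp measured 10.83, 10.77 and 10.72 against 10.61, 10.68 and 10.53, again without overlap, a difference of -0.16 (limma adjusted p = 0.739 over all probe sets). The probe set shared by Ifi47 and Olfr56 differed by -0.098, and Ly-6C-negative replicate 3 overlapped the other group.

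Gbp2, whose probe set also names Gbp2b, measured 9.98, 9.84 and 9.99 in Ly-6C-positive and 9.72, 9.44 and 9.66 in Ly-6C-negative cells. The groups did not overlap, and the difference was -0.33, standard error 0.088 (limma adjusted p = 0.508 over all probe sets, of which 0.156% passed). Gbp3 measured 7.48, 7.47 and 7.52 against 7.46, 7.30 and 7.28 (limma adjusted p = 0.805). Gbp7 measured 9.74, 9.66 and 9.82 against 9.68, 9.28 and 9.74, where Ly-6C-negative replicate 2 alone stood well below the rest; without that array the difference of -0.17 became -0.031. The probe set that names Gbp6 with 5 other guanylate-binding protein genes differed by -0.11. All 9 probe sets stayed below 0 with a second quantile normalization and with array medians subtracted, and 8 of 9 did without Ly-6C-positive replicate 1.

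**Figure D3:**
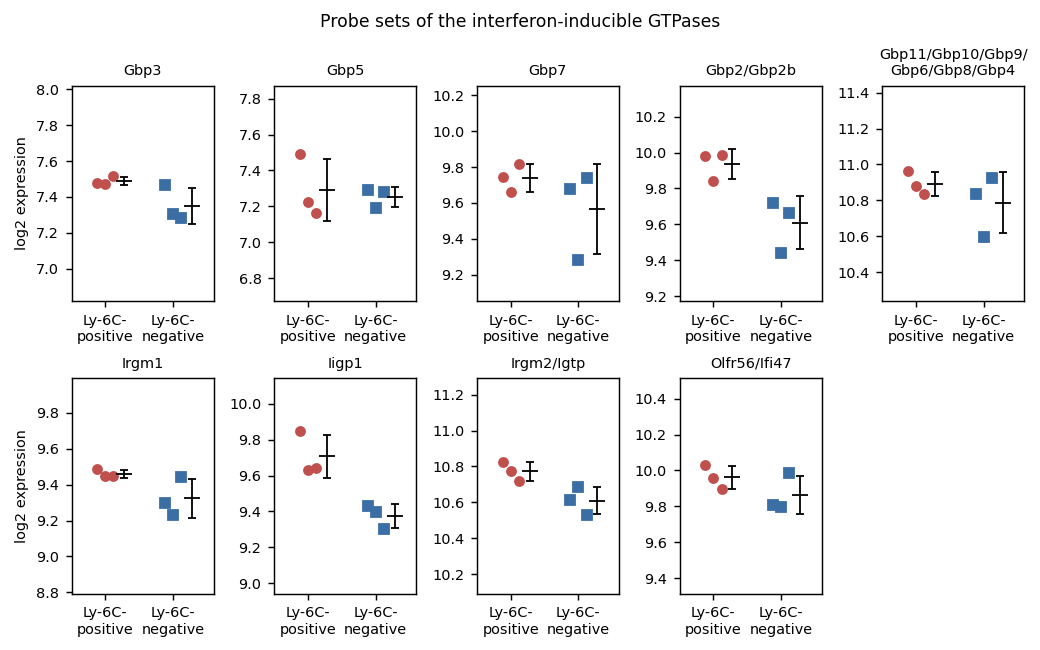
Log2 expression on each array for the 9 probe sets of the guanylate-binding proteins (upper row) and the immunity-related GTPases (lower row), with mean and SD of 3 arrays; a title with several names is a probe set shared by those genes. The Ly-6C-negative mean is the lower in every panel, and the groups overlap for Gbp5, Gbp7, the Gbp6 probe set and the Ifi47 probe set.

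Within the groups, the members varied more among Ly-6C-negative than among Ly-6C-positive arrays. The median SD of a member was 0.10 in Ly-6C-negative and 0.065 in Ly-6C-positive cells, where all genes had 0.095 and 0.074. Ly-6C-negative replicates 2 and 3 differed by over 0.3 in 11 members, or 26.8%, and in 14.4% of all genes. Of these, Ifit3, Bst2, Isg20, Ifit1 and Oas1a were higher in replicate 2, by 0.80 for Ifit3 and 0.59 for Bst2. Slfn5, Dtx3l, Gbp7, Parp14, Oas1b and Ifit2 were higher in replicate 3, and replicate 2 minus replicate 3 was -0.50 for Slfn5. These 11 members therefore did not go up or down together between Ly-6C-negative replicates 2 and 3, and genes of 1 family, such as Ifit3 and Ifit2, went opposite ways. Ly-6C-negative replicates 1 and 2 differed by over 0.3 in 8 members, or 19.5%, against 11.4% of all genes, and replicates 1 and 3 in 3 members, or 7.32%, against 6.15%. Among Ly-6C-positive arrays this held for 1 member between replicates 1 and 2, or 2.44% against 3.32% of all genes, 4 between 1 and 3, or 9.76% against 4.61%, and 2 between 2 and 3, or 4.88% against 4.37%. The wide pairs of the Ly-6C-negative group are thus those that hold replicate 2.

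Naive CD4 T cell markers also differed on average between these arrays, with a mean deviation from the gene's mean of -0.17 in Ly-6C-negative replicate 2 and 0.13 in replicate 3, over 10 of 12 listed genes. Over all genes it was -0.0025 and -0.0076 there. The marker mean was -0.081 in Ly-6C-negative replicate 1 and 0.095 in Ly-6C-positive replicate 3. Cd3d and Cd3g went the other way, at 12.30 and 12.44 in Ly-6C-negative replicate 2 and 12.03 and 12.37 in replicate 3. Thy1 had the widest spread of the markers, at 10.26 and 10.94 there. The part of these marker differences in the members' spread was not tested. The members' own mean deviation lay between -0.026, in Ly-6C-positive replicate 3, and 0.021, in Ly-6C-positive replicate 1, and the groups overlapped.

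**Figure D4:**
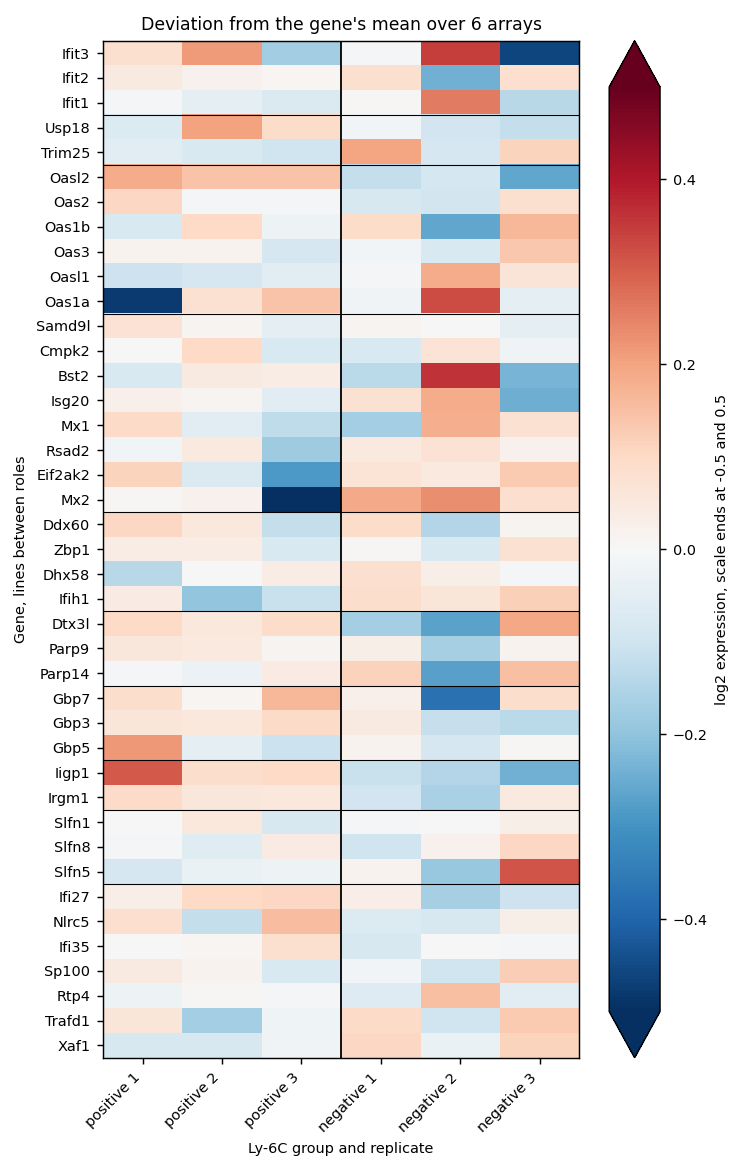
Deviation of each of the 41 genes from its own mean over the 6 arrays, in log2 expression, with genes in rows by role and arrays in columns by Ly-6C group and replicate; red is above and blue below the mean, and the colours end at 0.5 either way. Ly-6C-negative replicates 2 and 3 have opposite colours for Ifit3, Bst2, Gbp7 and Slfn5, and single Ly-6C-positive arrays are dark blue for Oas1a and Mx2.

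The steps that lead to these genes were examined in the same fit. Of 21 listed receptors, kinases and transcription factors of interferon signalling 20 were measured, and 0 passed limma's adjusted p of 0.05, with 3 at an unadjusted limma p under 0.05, all higher in Ly-6C-negative cells, or 15.0% beside 6.71% of all genes. The groups did not overlap in 6 of the 20, or 30.0%, beside 12.6% of all genes. Ifnar2, a chain of the type I interferon receptor, measured 9.62, 9.58 and 9.40 in Ly-6C-positive and 9.71, 9.86 and 9.69 in Ly-6C-negative cells, a difference of 0.22 without overlap (limma adjusted p = 0.641). Stat2 measured 8.42, 8.39 and 8.48 against 8.50, 8.64 and 8.72, a difference of 0.19 without overlap (limma adjusted p = 0.675). Jak2 differed by 0.22, with overlap. Irf1, a factor induced by interferon gamma, measured 9.28, 9.26 and 9.20 against 9.18, 8.97 and 9.10, a difference of -0.17 without overlap (limma adjusted p = 0.742). Ifnar1 differed by -0.055, Irf7 by -0.021 and Irf9 by 0.045. In all 9 of the 20 were above 0 and 11 below, with a median difference of -0.030.

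The interferon genes themselves gave dim probe sets for the most part. Of 14 listed, 12 were measured and 0 passed limma's adjusted p of 0.05. At an unadjusted limma p under 0.05 there was 1, Ifna12, or 8.33% beside 6.71% of all genes. Ifna12 measured 4.52, 4.30 and 4.05 in Ly-6C-positive and 4.20, 3.72 and 3.80 in Ly-6C-negative cells, a difference of -0.38 with overlapping groups (limma adjusted p = 0.653). Ifnb1 differed by -0.16, Ifna2 by -0.17 and Ifne by -0.072, and Ifng, the type II interferon, by 0.026.

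Other interferon-inducible genes, from a list of 80 with 62 measured, had 0 genes past limma's adjusted p of 0.05 and 10 at an unadjusted limma p under 0.05, 5 in each direction, or 16.1% beside 6.71% of all genes. Their median difference was -0.023, with 24 above 0 and 38 below. The list shares Stat2, Irf7 and Irf9 with the signalling genes. Ifit1bl2, an IFIT relative, measured 5.82, 6.05 and 5.87 in Ly-6C-positive and 5.50, 5.60 and 5.64 in Ly-6C-negative cells, a difference of -0.33 (limma adjusted p = 0.358). Epsti1 differed by -0.24 (limma adjusted p = 0.458), Ifi213, of the family of DNA-binding p200 proteins, by 0.28 (limma adjusted p = 0.491) and Plac8 by 0.35 (limma adjusted p = 0.526). In these 4 genes the groups did not overlap. The groups did not overlap in 14 of the 62 genes, or 22.6%, beside 12.6% of all genes.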

How the data were processed

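The authors deposited log2 values for 28853 probe sets of 6 Affymetrix arrays, which were taken unchanged. The submitters' processing notes name RMA and Partek; versions, chip description and genome build: not given in the sources used here. RMA equalises the arrays' distributions, which hides a change common to all genes, and compresses differences of dim genes. Per the labels' protocols, 50 ng of RNA was amplified and 5 µg of cDNA labelled. Of the probe sets 21789 had 1 symbol in the platform annotation, updated by Entrez ID where 21698 matched, 1621 had several and 5443 were not listed.

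The groups were compared in R 4.3.3 by limma 3.58.1 (eBayes, 2-sided tests, no covariate, no filter) over 19938 genes with Benjamini-Hochberg adjustment, and read for the members. Shared probe sets were read from the same fit over every probe set. The steps were tested on simulated data. The members and gene lists were chosen with earlier results of these data known. The named genes are the members past the threshold, up to 12 of smallest p, the brightest of each role, and up to 4 genes per pathway list; the other members are given by role.

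Both groups share replicate numbers. After subtraction of group means, arrays of the same number correlated over genes at 0.129, 0.128 and 0.107, above the bound of 0.1. The numbers were therefore treated as possible pairs, which the labels do not state. The p-values and intervals come from the fit without pairs, except where a replicate block or another setting is named. The number of arrays limits the precision. Alternatives were this replicate block, 2 scalings, a filter on dim genes, the mean of probe sets, another variance model, array weights and leaving out each array; reading every probe set was added after the data were seen. Figures were drawn with matplotlib 3.10.9.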

Additional observations from a re-analysis of the deposited data

How the results depend on the processing

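Under all 14 settings run, none of the members passed limma's adjusted p of 0.05. The smallest adjusted p of any member was 0.137, for Oasl2 with array weights, and with no setting changed it was 0.285. At an unadjusted p under 0.05 the count of members lay between 2, without Ly-6C-positive replicate 3, and 7, without Ly-6C-negative replicate 2. The median difference of the members stayed within the spread between replicates but not on one side of 0, at -0.018 with a second quantile normalization and 0.024 with array medians subtracted. With the replicate number as a block, 0 members and 41 genes passed, against 29 genes without it, and it changed no call on a member. Array weights gave 54 genes. Leaving out an array gave 5 to 47 genes, 0 members, and 9 to 17 members whose groups do not overlap, against 8 with all arrays; the 9, without Ly-6C-negative replicate 1, are 22.0% beside 21.8% of all genes, and the 17, without Ly-6C-negative replicate 2, are 41.5% beside 27.0%; fewer arrays make overlap rarer by construction. Without genes below the median level 40 members remained, so 40 of 41 member probe sets were brighter than the median gene; Cmpk2 was the other. With 3 arrays a group, the 95% intervals of 8 members reached beyond a 1.3-fold change.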
